A study of Mus musculus with 8 samples.

Results

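Mediator is described here through the 33 genes that encode its subunits in mouse: every gene of the deposited tables whose symbol is Med followed by digits, with Med12l and Med13l, plus Ccnc, Cdk8 and Cdk19. They are 33 of 18631 listed genes, and 32 of them reached the mean of 1 FPKM (a read-out of abundance corrected for transcript length and library size) that the tests required. Poly(A) RNA was sequenced from 2 mouse kidney epithelial cell lines, a Pkd1+/- heterozygous line named pkd1(PH) and a Pkd1-/- line named null(PN). Pkd1 encodes polycystin-1, and mutations in it cause most autosomal dominant polycystic kidney disease. The drug was THZ1, which binds the kinase CDK7 covalently and blocks it, given at 50 nM for 6 h, with DMSO alone as the control. That makes 4 groups of 2 libraries: heterozygous with DMSO, heterozygous with THZ1, null with DMSO and null with THZ1. All 4 groups were grown in DMEM-F12 with serum, penicillin and streptomycin, insulin-transferrin-selenium, interferon gamma, nystatin and T3. Each genotype was 1 line, so loss of Pkd1 and any other difference between the lines cannot be told apart. Whether the replicates were separate cultures is not in the labels, and the p-values therefore measure only the spread among these libraries, which may be technical.

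Mediator is the large assembly that carries signals from transcription factors bound at enhancers to RNA polymerase II at promoters. Its head and middle modules contact the polymerase, its tail binds activators, Med14 holds these modules together as a scaffold, and a detachable kinase module of cyclin C, CDK8 or CDK19, MED12 and MED13 regulates whether the rest can engage the polymerase. CDK7, a target of THZ1, belongs to the general factor TFIIH. Phosphorylation of the polymerase tail by TFIIH is stimulated by Mediator and helps the polymerase leave the promoter. The gene's name gives the subunit throughout, and the measurements are of messenger RNA, not of protein or of assembled complex.

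As a check of the labels, Pkd1 stood at 4.58 and 5.3 FPKM in the heterozygous DMSO libraries, 3.71 and 4.2 in heterozygous THZ1, 1.69 and 1.32 in null DMSO, and 1.22 and 1.21 in null THZ1. The null line was lower in all its libraries, but the gene was not at 0. The steps between low values put the depth of a library at 17.3 to 18.3 M (mega) fragments. Of 9 kidney epithelial markers 7 had a group mean of at least 1 FPKM in every group, although Epcam lay at 0.05 to 0.24 and Cdh1 at 0.1 to 0.42 in all 8 libraries. The summed level of those 9 markers was 1022 to 1110 in the heterozygous libraries and 749 to 830 in the null ones. Cdh16 ran the other way, with means of 182 FPKM in heterozygous DMSO, 184 in heterozygous THZ1, 264 in null DMSO and 307 in null THZ1. Cldn4 did so under DMSO only, with means of 63.9, 46.5, 71.9 and 30.5 FPKM in the same order. Of 7 fibroblast markers only Col1a1 had a mean of at least 1 in any group, and the summed level of the 7 was 3.77 to 4.27 in the heterozygous libraries, 17.04 to 18.4 in null DMSO and 24.5 to 24.9 in null THZ1. In 6 leukocyte markers Cd68 alone had a mean of at least 1, at 1.72 to 4.82, while Adgre1 and Cd3e were listed at 0 throughout, and 4 endothelial markers summed to at most 0.2. These marker levels move with the groups, and their part in the results below was not tested.

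Promoters are shown for 4 members, because the Mediator genes moved in opposite directions in the null line and these are examples from each side. Med11 and Med18 fell there with THZ1, and Med26 and Ccnc rose. Among called members with a RefSeq promoter whose last 150 bases before the start overlap no annotated exon or gene, they had the 2 lowest and the 2 highest values. The windows are chr11:70451768-70451917 on the plus strand for Med11, chr4:132463922-132464071 on the minus strand for Med18, chr8:72548311-72548460 on the minus strand for Med26 and chr4:21727551-21727700 on the plus strand for Ccnc, from RefSeq on GRCm38.p6, written 5′ to 3′ along the gene's strand. Capitals mark matches to the motifs described next.
Med11: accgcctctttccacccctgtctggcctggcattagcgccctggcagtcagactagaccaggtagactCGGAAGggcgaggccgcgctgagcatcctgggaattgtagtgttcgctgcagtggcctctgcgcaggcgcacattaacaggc
Med18: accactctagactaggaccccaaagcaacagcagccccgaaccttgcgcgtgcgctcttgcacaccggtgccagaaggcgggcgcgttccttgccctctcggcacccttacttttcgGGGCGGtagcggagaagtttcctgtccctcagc
Med26: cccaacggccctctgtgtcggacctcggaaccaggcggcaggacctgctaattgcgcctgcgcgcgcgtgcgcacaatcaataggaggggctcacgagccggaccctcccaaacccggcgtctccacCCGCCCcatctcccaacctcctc
Ccnc: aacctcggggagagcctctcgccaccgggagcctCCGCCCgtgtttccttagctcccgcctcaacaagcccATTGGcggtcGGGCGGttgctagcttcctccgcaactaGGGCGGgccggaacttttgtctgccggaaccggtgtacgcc

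Each of the 6 motifs searched is the core of a known promoter element, sought on both strands in windows of 250 bases before and 50 after the start. RefSeq held 32 such windows for 28 of the 33 members, none for Cdk19, Med8, Med23, Med24 and Med30, and 32851 windows in all. The GC box core GGGCGG was found in 62.5% of member windows against 35.7% of all windows. The core of ETS factor sites, CGGAAG, was in 40.6% against 16.9%, ATGGCG, the core bound by YY1, in 21.9% against 8.93%, and GCATGC, the centre of NRF1 sites, in 15.6% against 7.93%. CCAAT was in 37.5% against 37.4%, and the TATA box core TATAAA in 9.38% against 13.6%. The motifs with a higher share in the members are rich in G and C, and the member windows held 59.1% G and C against 53.8% over all windows. All windows include those of genes too low to be tested here. Shares among the tested genes alone were not computed, so these differences may not be particular to Mediator. A match describes the letters and is not a binding site. In the 4 windows above, Med11 has 1 CGGAAG match, Med18 and Med26 have 1 GGGCGG match each, and Ccnc has 3 GGGCGG matches and 1 CCAAT match, so the GC box core is present on both sides of the split.

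The Mediator genes were expressed at ordinary levels. The median member had a mean of 14.6 FPKM over the 8 libraries, beside 14.7 for all 10731 tested genes, and the range ran from 5.53 for Med18 to 39.6 for Med21. The middle module (median 19.2 FPKM) and the tail (21.5) were higher than the head (15.0), the scaffold Med14 (12.3) and the kinase module (10.5). Med21, a middle subunit that forms the hinge of the complex with Med7, was at 29.8 to 48.8 FPKM in single libraries. Med15, the tail subunit contacted by SREBP and SMAD factors, followed with 26.4 to 45.3, then Med30 and Med22 of the head, each with a mean of 31.0. At the low end were Med18, a subunit of the head's movable jaw, Med12, the kinase module subunit that activates the kinase (mean 6.99), and Med26 (7.45), which links the complex to elongation factors. At the estimated depth the member with the fewest fragments among those tested, Med18, rested on about 95.7 to 229.5 fragments per library, and Med1 with the most on about 2261 to 3891.

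Med12l, the paralog of Med12, was the member that did not reach the tests. It was listed at 0 in 6 libraries, at 0.02 FPKM in null DMSO replicate 1 and at 0.01 in null THZ1 replicate 2. Its change was not tested. Among members that other protein-coding genes overlap are Ccnc (Tstd3), Cdk19 (Gm32234), Med9 (Rasd1), Med19 (Tmx2 and Zdhhc5), Med20 (Gm20517) and Med31 (4930563E22Rik). How the counting treated strand is not given in the sources used here, so reads of these pairs may not be separable.

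**Figure D1:**
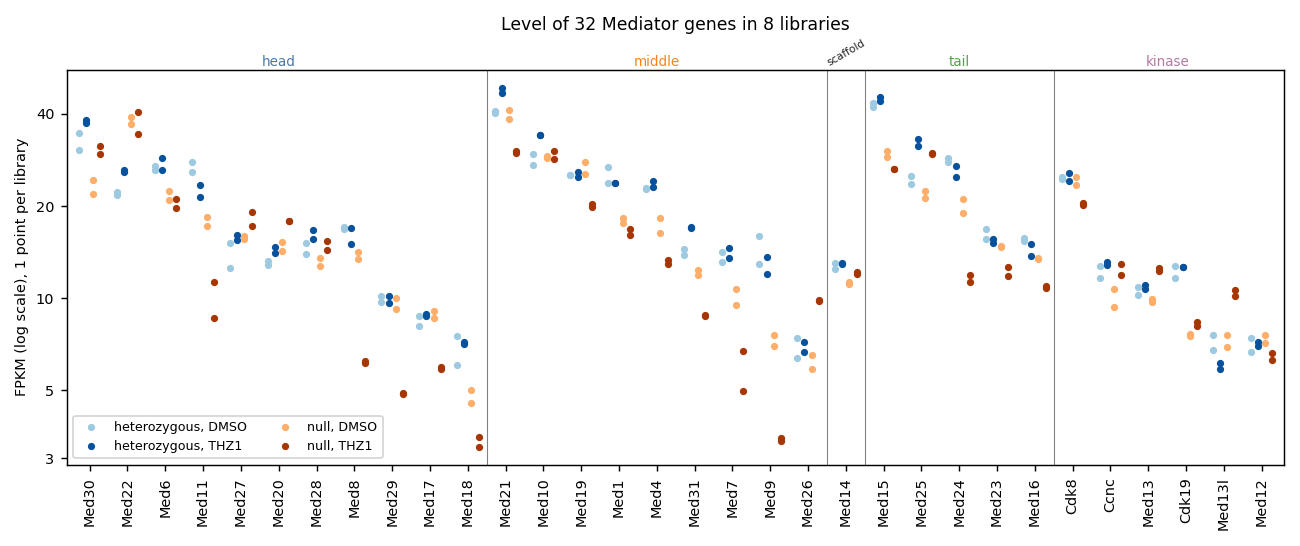
FPKM (vertical axis, log scale) of the 32 tested Mediator genes, ordered by module and then by mean level, with 1 point per library and colour for the group. The null THZ1 points (dark red) reach down to 3.27 for Med18 and 3.41 for Med9 and, for Med26 and Med13l, lie above every other group.

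The comparison of the lines without drug asks what differs at the start. In null cells 17 of the 32 members were lower than in heterozygous cells and 3 were higher, beside 41.0% lower and 29.0% higher among all tested genes. The members' median difference was -0.16 on the log2(FPKM + 1) scale used for every test, against -0.07 for all genes. Med9, Cdk19, Med11 and Med15 had the largest decreases and Med22 the largest increase. Calls are by limma with an adjusted p under 0.05, and in bulk RNA fewer cells with a transcript and less of it per cell cannot be told apart. With upper-quartile scaling between libraries the split was 6 higher and 10 lower, beside 4090 higher and 2717 lower among all tested genes. Under each of the 18 alternative settings 1 higher and 9 lower members were called. Without heterozygous DMSO replicate 1, or without null DMSO replicate 2, a single member (Med22) was called higher.

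In the head, 3 of 11 members were higher and 5 lower, beside 29.0% higher and 41.0% lower among all tested genes. Med22, which pairs with Med11 in the head, was at 22.2 and 21.8 FPKM in heterozygous DMSO, 25.9 and 26.2 in heterozygous THZ1, 39.2 and 37.2 in null DMSO, and 34.5 and 40.7 in null THZ1. Every null library lay above every heterozygous library, with a difference under DMSO of 0.77 (SE 0.066, limma adjusted p = 3.56e-07). Its partner Med11 went the other way, with 25.8 and 27.9 FPKM in heterozygous DMSO against 17.2 and 18.4 in null DMSO, a difference of -0.57 (SE 0.096, limma adjusted p = 0.00017). The genes of this heterodimer therefore differed between the lines in opposite directions. Med30, a subunit at the junction of head and tail, was at 30.5 and 34.7 against 21.9 and 24.3 FPKM (-0.48, SE 0.065, limma adjusted p = 2.67e-05). Med27, another subunit of that junction, passed narrowly at 12.5 and 15.1 against 15.6 and 16.0 FPKM (0.19, SE 0.079, limma adjusted p = 0.0499), and this call held in 8 of 18 alternatives. Med20 was the other higher head member, and Med6, Med8 and Med18 the other lower ones.

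Of the 9 middle subunits 5 were lower (Med1, Med4, Med7, Med9 and Med31) and 4 were not called, beside 41.0% lower among all tested genes. Med9, a small middle subunit that binds Med4, was at 12.9 and 16.0 FPKM in heterozygous DMSO and at 6.97 and 7.55 in null DMSO, a difference of -0.90 (SE 0.093, limma adjusted p = 2.23e-06) and the largest decrease of any member here. The mean FPKM of the null line differed from that of the heterozygous line by -49.7%. Med1, the subunit that nuclear receptors bind, was at 26.8 and 23.8 against 18.3 and 17.6 FPKM (-0.47, SE 0.061, limma adjusted p = 1.56e-05). Med26 was not called (-0.13, SE 0.081, limma adjusted p = 0.163), and its libraries overlapped. The scaffold Med14 was lower, with 13.1 and 12.5 against 11.3 and 11.1 FPKM (-0.17, SE 0.057, limma adjusted p = 0.016), a call that held in 12 of 18 alternatives and not with median-of-ratios scaling, with upper-quartile scaling or with library totals, nor without heterozygous DMSO replicate 1 or either null DMSO replicate.

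In the tail 4 of 5 members were lower and Med23, the subunit bound by the ETS factor ELK1, was not called. The share of all tested genes called lower was 41.0%. Med15 was at 42.1 and 43.6 FPKM in heterozygous DMSO against 28.9 and 30.3 in null DMSO (-0.52, SE 0.046, limma adjusted p = 5.17e-07). Med24 was at 27.9 and 28.7 against 19.03 and 21.1 FPKM (-0.48, SE 0.063, limma adjusted p = 1.84e-05). Both kept their call in every alternative run. Their libraries did not overlap between the lines, which also held for members not called, such as Med13, Med19, Med23 and Med28.

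In the kinase module 2 of 6 tested members were called, Cdk19 and Ccnc, both lower. The shares over all tested genes were 41.0% lower and 29.0% higher. Cdk19, the paralog that can replace Cdk8 as the module's kinase, was at 12.7 and 11.6 FPKM in heterozygous DMSO and 7.65 and 7.52 in null DMSO (-0.62, SE 0.064, limma adjusted p = 2.11e-06). Ccnc, the cyclin of the module, was at 12.8 and 11.6 against 10.7 and 9.38 FPKM (-0.26, SE 0.074, limma adjusted p = 0.00751). The others did not pass: Cdk8 differed by -0.03 (SE 0.052), Med12 by 0.05 (SE 0.073), Med13 by -0.09 (SE 0.061) and Med13l by 0.01 (SE 0.075), with limma adjusted p from 0.198 for Med13 to 0.902 for Med13l. For Cdk8 the 95% interval of the difference ran from -0.14 to 0.09. The Cdk19 call held in all 18 alternatives run, while that of Ccnc was lost with upper-quartile scaling (-0.11, limma adjusted p = 0.284), without heterozygous DMSO replicate 1 and without null DMSO replicate 2.

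**Figure D2:**
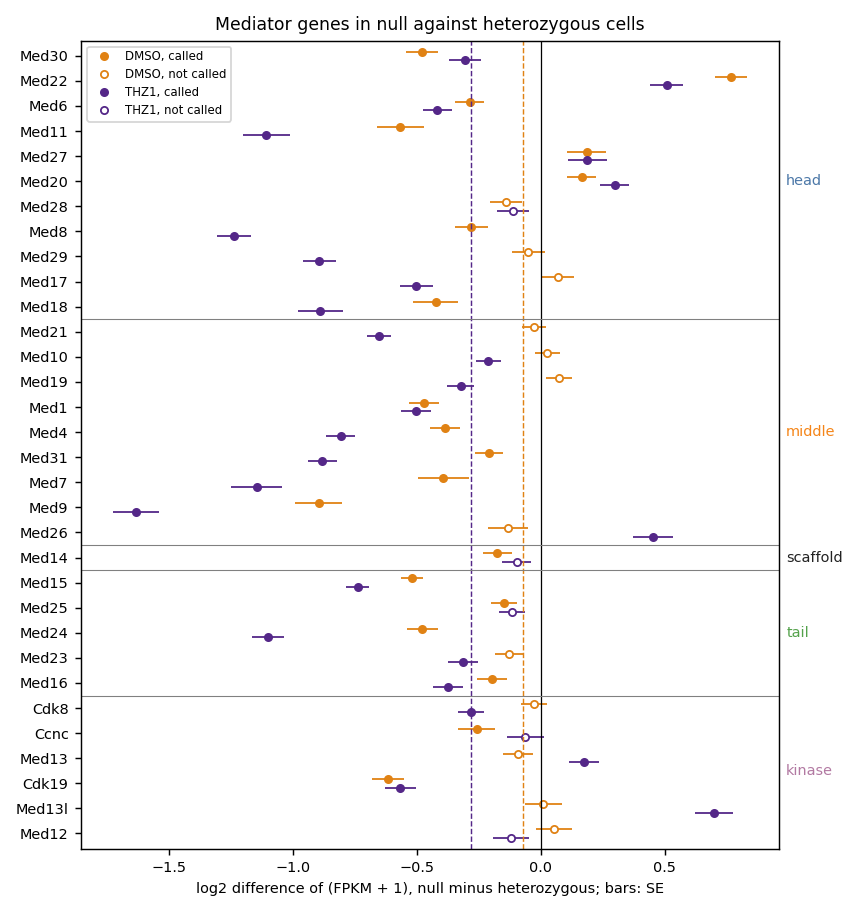
Difference between null and heterozygous cells (horizontal axis, log2 of FPKM + 1, null minus heterozygous) for each member, under DMSO (orange) and under THZ1 (purple), with SE bars, filled points for called members and dashed lines at the medians of all tested genes. Under THZ1 Med9 reaches -1.63 and Med8 -1.24, while Med13l is at 0.70 and Med22 at 0.51.

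In heterozygous cells the Mediator genes responded little to THZ1. Of the 32 members 6 rose, beside 12.2% of all tested genes called higher, and the members' median change was 0.04 against 0.01 for all genes. No member was called lower by limma, beside 10.3% of all genes, and 2 were lower at an unadjusted p under 0.05 (Med11 and Med13l). The members that rose were Med22 and Med30 of the head, Med10, Med21 and Med31 of the middle and Med25 of the tail. Only Med10 and Med25 were called under each of the 18 alternatives. The split was 5 higher and 1 lower with median-of-ratios scaling, 2 and 1 with upper-quartile scaling, and 4 and 2 with library totals. Over all tested genes the same scalings gave 1061 higher and 1136 lower, 426 and 882, and 753 and 1491. The number higher was 3 without heterozygous DMSO replicate 1, 3 without heterozygous THZ1 replicate 1 and 2 without heterozygous THZ1 replicate 2.

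Med25, the tail subunit known as the target of the viral activator VP16, had the largest increase. It went from 23.7 and 25.1 FPKM with DMSO to 31.4 and 33.2 with THZ1 (0.39, SE 0.053, limma adjusted p = 0.00062), a rise in the mean of 32.7%. Med10, which joins the middle module to Med14, went from 27.3 and 29.5 to 34.0 and 34.2 FPKM (0.26, SE 0.051, limma adjusted p = 0.00517). In both genes the libraries of the 2 treatments did not overlap, which also held for members not called, such as Med11, Med17 and Med20. Med31 went from 13.8 and 14.5 to 16.96 and 17.1 FPKM (0.25, SE 0.058, limma adjusted p = 0.00966), Med22 changed by 0.23 (SE 0.066, adjusted p = 0.025) and Med30 by 0.21 (SE 0.065, adjusted p = 0.0364).

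No kinase module member was called in heterozygous cells, and 1 of them, Med13l, was lower at an unadjusted p under 0.05. The shares over all tested genes were 12.2% called higher and 10.3% called lower. Med13l, the paralog of the linker subunit Med13, was at 7.58 and 6.78 FPKM with DMSO and 6.16 and 5.85 with THZ1, a difference of -0.22 (SE 0.075, limma adjusted p = 0.051) that lay just outside the threshold. The other kinase module genes differed by 0.01 (Cdk8, SE 0.052), 0.01 (Med12, SE 0.073), 0.04 (Med13, SE 0.061), 0.05 (Cdk19, SE 0.064) and 0.09 (Ccnc, SE 0.074), with limma adjusted p from 0.416 for Ccnc to 0.948 for Med12. Med14 (0.03, SE 0.057), Med1 (-0.08, SE 0.061) and Med26 (0.01, SE 0.081) were not called either, at limma adjusted p of 0.774, 0.347 and 0.947.

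In null cells THZ1 moved the Mediator genes in both directions. Of the 32 members 16 fell and 9 rose, beside 51.1% of all tested genes called lower and 24.6% called higher, so these shares are near the background. The members' median change was -0.16 against -0.17 for all genes. The fall was largest in Med8, Med9, Med29, Med11, Med24 and Med7, and the rise in Med26, Med13l, Med25 and Med30. The median of all genes moved from -0.17 with FPKM as deposited to 0.03 with median-of-ratios scaling, so the split depends on the scale. That scaling gave 14 higher and 11 lower members, and upper-quartile scaling 11 and 12. Over all tested genes the same scalings gave 4363 higher and 3942 lower, and 3307 and 4277. Called under each of the 18 alternatives were 11 of the 16 members that fell (Med4, Med7, Med8, Med9, Med11, Med17, Med19, Med21, Med24, Med29 and Med31) and 6 of the 9 that rose (Med13, Med13l, Med20, Med25, Med26 and Med30). FPKM and each scaling tried are relative to the other genes of a library. A change in total mRNA per cell would not show in them, so rises and falls here are relative.

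In the head 5 of 11 members fell (Med8, Med11, Med17, Med18 and Med29), 4 rose (Med20, Med27, Med28 and Med30) and Med6 and Med22 were not called. The background over all tested genes was 51.1% lower and 24.6% higher. Med8, which anchors the Med18 and Med20 jaw to the head, lies on chromosome 4 from 118409282 to 118415824 on GRCm38.p6. Its level was 17.1 and 16.8 FPKM in heterozygous DMSO, 16.97 and 15.0 in heterozygous THZ1, 14.2 and 13.4 in null DMSO, and 6.14 and 6.25 in null THZ1. The null THZ1 libraries stand far below the other 6, which span 13.4 to 17.1. The change in null cells was -1.04 (SE 0.067, limma adjusted p = 2.53e-08) or -55.0% of the mean.

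Med29, the ortholog of the fly protein Intersex at the junction of head and tail, was at 9.73 and 10.2 FPKM in heterozygous DMSO, 9.66 and 10.1 in heterozygous THZ1, 9.99 and 9.2 in null DMSO, and 4.88 and 4.86 in null THZ1. The first 3 groups overlap and the fourth is separate, with a change in null cells of -0.85 (SE 0.068, limma adjusted p = 1.62e-07). Med17, the subunit at the core of the head, had the same shape: 8.09 to 9.07 FPKM in the other 6 libraries and 5.97 and 5.87 in null THZ1. Med30 and Med20 rose. Med30 was at 30.5 and 34.7 FPKM in heterozygous DMSO, 37.5 and 38.2 in heterozygous THZ1, 21.9 and 24.3 in null DMSO, and 31.4 and 29.5 in null THZ1 (0.39 in null cells, SE 0.065, limma adjusted p = 0.000141). Med20, the partner of Med18 in the jaw, was at 12.9 and 13.3, 14.1 and 14.7, 14.3 and 15.3, and 17.9 and 17.9 FPKM in the same order (0.26, SE 0.058, limma adjusted p = 0.00105). So within the jaw Med20 rose while Med18 fell from 5.01 and 4.55 to 3.53 and 3.27 FPKM, although the Med18 call was lost with median-of-ratios scaling.

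The junction subunits Med27 to Med30, which some authors count with the tail, also parted: Med27, Med28 and Med30 rose and Med29 fell. With these 4 placed in the tail, the head had 1 member higher and 4 lower of 7. The tail then had 4 higher and 5 lower of 9, beside 24.6% higher and 51.1% lower among all tested genes. The Med27 and Med28 calls are the least stable of the 9 increases. Med27 kept its call in 9 of 18 alternatives and Med28 in 14 of 18.

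The middle module mostly fell, under each scaling tried. Of its 9 members 6 fell (Med4, Med7, Med9, Med19, Med21 and Med31), Med1 and Med10 were not called and Med26 rose. Among all tested genes 51.1% were called lower and 24.6% higher. Med9, on chromosome 11 from 59948214 to 59963306, was at 12.9 and 16.0 FPKM in heterozygous DMSO, 11.98 and 13.6 in heterozygous THZ1, 6.97 and 7.55 in null DMSO, and 3.41 and 3.49 in null THZ1. Its change in null cells was -0.89 (SE 0.093, limma adjusted p = 1.91e-06), and because it started lower there, its mean with THZ1 differed from that of heterozygous THZ1 cells by -73.0%. Med7, the hinge partner of Med21, was at 14.1 and 13.1, 14.6 and 13.5, 10.7 and 9.52, and 4.99 and 6.73 FPKM in the same order (-0.71, SE 0.10, limma adjusted p = 3.88e-05). The 2 null THZ1 libraries of Med7 lie apart from each other, and leaving out 1 library at a time gave changes from -0.89 to -0.52. Med21, its partner in that hinge, was at 40.2 and 41.0, 46.9 and 48.8, 41.3 and 38.4, and 30.4 and 29.8 FPKM: it is above DMSO in heterozygous THZ1 and below DMSO in null THZ1. Med31 had the same crossing pattern, from 12.3 and 11.9 to 8.82 and 8.77 FPKM in null cells against the rise in heterozygous cells given above.

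Med26 was the exception in the middle module. It binds TFIID and, through EAF proteins, the super elongation complex, and thereby links initiation to elongation. The gene lies on chromosome 8 from 72494555 to 72548310 and was at 6.36 and 7.4 FPKM in heterozygous DMSO, 6.67 and 7.17 in heterozygous THZ1, 6.51 and 5.86 in null DMSO, and 9.84 and 9.82 in null THZ1. Both null THZ1 libraries are above the other 6, and the change in null cells was 0.59 (SE 0.081, limma adjusted p = 2.08e-05), a rise in the mean of 58.9%. Med1 was not called (-0.11, SE 0.061, limma adjusted p = 0.105), nor was Med14 (0.10, SE 0.057, limma adjusted p = 0.116), though with median-of-ratios scaling Med14 was called at 0.32.

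In the tail 4 members fell (Med15, Med16, Med23 and Med24) and Med25 rose, beside 51.1% lower and 24.6% higher among all tested genes. Med24, a subunit of the tail's body with Med16 and Med23, was at 27.9 and 28.7 FPKM in heterozygous DMSO, 27.1 and 24.9 in heterozygous THZ1, 19.03 and 21.1 in null DMSO, and 11.9 and 11.3 in null THZ1 (-0.74 in null cells, SE 0.063, limma adjusted p = 2.94e-07). Med16 went from 13.4 and 13.5 to 10.9 and 10.8 FPKM (-0.29, SE 0.060, limma adjusted p = 0.000732). The decreases of Med15, Med16 and Med23 were not called with median-of-ratios scaling, where Med15 stood at 0.06, and the decrease of Med24 was. Med25 went from 21.3 and 22.5 to 29.8 and 29.7 FPKM (0.43, SE 0.053, limma adjusted p = 8.25e-06). It rose in both lines, by 32.7% of the mean in heterozygous and 36.0% in null cells.

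Of the 6 tested members of the kinase module 3 rose (Ccnc, Med13 and Med13l), Cdk8 fell with FPKM as deposited but not with median-of-ratios or upper-quartile scaling, and Cdk19 and Med12 were not called. The shares among all tested genes were 24.6% higher and 51.1% lower. The median change of the kinase module was 0.19, beside 0.10 for the scaffold Med14, -0.08 for the head, -0.26 for the tail and -0.39 for the middle module. These differences were not tested. With median-of-ratios scaling Cdk19 was called higher as well. Med13l, on chromosome 5 from 118560330 to 118765438, was at 7.58 and 6.78 FPKM in heterozygous DMSO, 6.16 and 5.85 in heterozygous THZ1, 6.91 and 7.57 in null DMSO, and 10.6 and 10.1 in null THZ1. The lines overlap with DMSO and are separate with THZ1, where the heterozygous libraries are the lowest and the null libraries the highest. Its change in null cells was 0.47 (SE 0.075, limma adjusted p = 9.2e-05). Med13, which tethers the kinase to the rest of the complex, was at 10.9 and 10.2, 10.7 and 11.1, 9.97 and 9.74, and 12.3 and 12.5 FPKM (0.31, SE 0.061, limma adjusted p = 0.000519). Ccnc was at 12.8 and 11.6, 12.9 and 13.1, 10.7 and 9.38, and 12.9 and 11.9 FPKM (0.28, SE 0.074, limma adjusted p = 0.00362), and the null THZ1 libraries lay between the lowest and the highest of the 4 heterozygous libraries. This Ccnc call was lost without null DMSO replicate 2, at an adjusted p of 0.0547.

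Cdk8 was at 24.4 and 24.9 FPKM in heterozygous DMSO, 25.6 and 24.2 in heterozygous THZ1, 23.5 and 24.97 in null DMSO, and 20.1 and 20.5 in null THZ1 (-0.24, SE 0.052, limma adjusted p = 0.00096). With median-of-ratios scaling the change was -0.02. Cdk19 stood at 0.10 (SE 0.064, limma adjusted p = 0.154) and Med12 at -0.16 (SE 0.073, limma adjusted p = 0.0598).

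**Figure D3:**
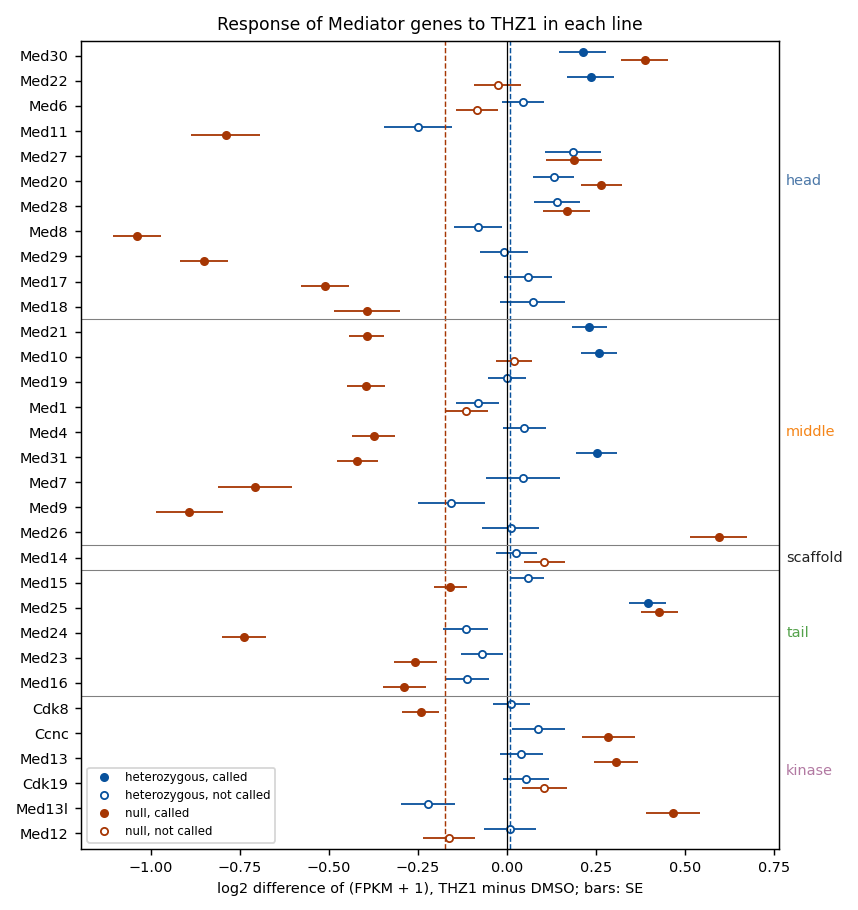
Response to THZ1 (horizontal axis, log2 of FPKM + 1, THZ1 minus DMSO) of each member in heterozygous (blue) and null (red) cells, with SE bars, filled points for called members and dashed lines at the medians of all tested genes. Most blue points lie near 0, while red points run from -1.04 for Med8 to 0.59 for Med26.

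**Figure D4:**
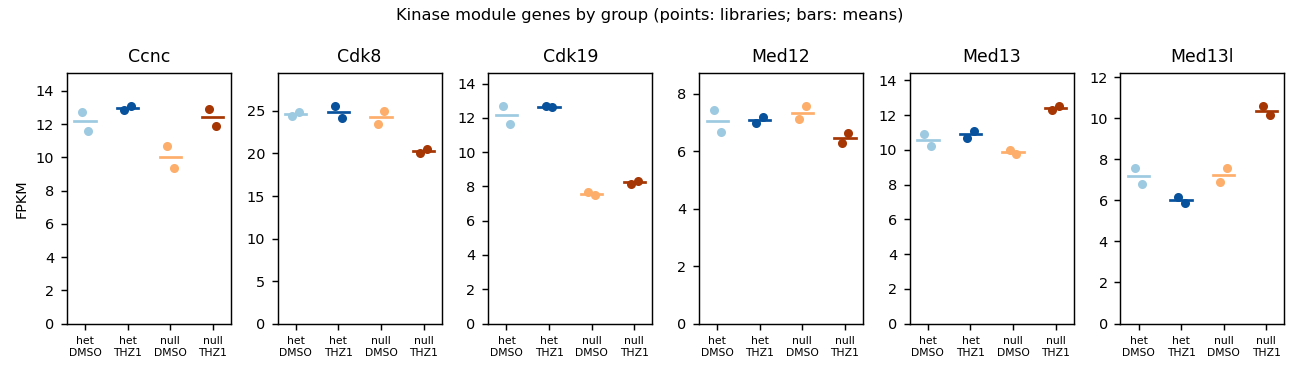
FPKM of the 6 tested kinase module genes in each group, with 1 point per library and a bar at the group mean, on axes that start at 0. Cdk19 separates the lines (7.52 to 8.34 in null, 11.6 to 12.7 in heterozygous libraries), whereas Med13 and Med13l are highest in null THZ1.

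Whether the responses differ between the lines was tested as the interaction, the response of null cells minus that of heterozygous cells. By this test 16 members were lower and 3 higher, beside 45.1% and 15.1% of all tested genes, and the members' median was -0.20 against -0.19. Median-of-ratios scaling gave 10 higher and 8 lower members, upper-quartile scaling 6 and 10. Over all tested genes the same scalings gave 3475 higher and 3126 lower, and 2362 and 3223. Lower under each of the 17 alternatives were Med7, Med8, Med9, Med17, Med21, Med24, Med29 and Med31, and higher were Med13l and Med26. No other member kept its call in this test under all 17.

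The largest differences in the head were in Med8 (-0.96, SE 0.095, limma adjusted p = 4.38e-06) and Med29 (-0.84, SE 0.096, limma adjusted p = 1.28e-05). In the middle they were in Med7 (-0.75, SE 0.15, limma adjusted p = 0.00076) and Med9 (-0.74, SE 0.13, limma adjusted p = 0.000433) on the lower side and Med26 (0.58, SE 0.11, limma adjusted p = 0.000802) on the higher. Med24 led the tail (-0.62, SE 0.089, limma adjusted p = 7.48e-05), followed by Med15 (-0.22, SE 0.066, limma adjusted p = 0.012), for which the difference was 0.01 with median-of-ratios scaling. The responses of Med25 differed by 0.03 (SE 0.074, limma adjusted p = 0.723), with a 95% interval from -0.13 to 0.19.

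In the kinase module Med13l differed most, at 0.69 (SE 0.11, limma adjusted p = 0.000138), since it was lower with THZ1 in both heterozygous libraries and higher in both null libraries. Med13 differed by 0.27 (SE 0.086, limma adjusted p = 0.0176), and Cdk8 by -0.26 (SE 0.074, limma adjusted p = 0.00987), or -0.03 with median-of-ratios scaling. Ccnc (0.20, SE 0.10, limma adjusted p = 0.122), Cdk19 (0.05, SE 0.090, limma adjusted p = 0.646) and Med12 (-0.17, SE 0.10, limma adjusted p = 0.171) did not pass. Neither did Med14 (0.08, SE 0.081, limma adjusted p = 0.426) or Med1 (-0.03, SE 0.086, limma adjusted p = 0.768). Across the 32 members the responses of the 2 lines, which share no library, had a Pearson r of 0.41 and a Spearman rho of 0.39, against 0.60 and 0.58 across all 10731 tested genes. Genes of a library share its depth, so these values are descriptions.

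Under THZ1 the lines differed in more members than under DMSO, and the same held over all tested genes. Not called were 5 members under THZ1 and 12 under DMSO, beside 1802 and 3223 of all tested genes. In null cells 21 members were lower and 6 higher than in heterozygous cells, beside 58.1% lower and 25.1% higher among all tested genes, with a member median of -0.35 against -0.28. With median-of-ratios scaling, and likewise with upper-quartile scaling, 10 members were higher and 14 lower. Over all tested genes the same scalings gave 4347 higher and 4410 lower, and 4178 and 4165. This comparison shares its null and heterozygous THZ1 libraries with the responses above, so it is another view of the same values. Med9 had the largest decrease (-1.63, SE 0.093, limma adjusted p = 3.33e-09) or -73.0% of the mean, followed by Med8 (-1.24, SE 0.067, limma adjusted p = 1.96e-09), Med7 (-1.14, SE 0.10, limma adjusted p = 2.73e-07) and Med11 (-1.11, SE 0.096, limma adjusted p = 1.87e-07). Med11 went from 23.5 and 21.3 FPKM in heterozygous THZ1 to 11.3 and 8.59 in null THZ1, the lowest of its 8 libraries.

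In the tail under THZ1 Med24 was lower by limma (-1.10, SE 0.063, adjusted p = 3.22e-09) and so was Med15 (-0.74, SE 0.046, adjusted p = 8.03e-09). The members that were higher were Med13l (0.70, SE 0.075, adjusted p = 1.49e-06), Med22 (0.51, SE 0.066, adjusted p = 9.24e-06), Med26 (0.45, SE 0.081, adjusted p = 0.000171), Med20 (0.30, SE 0.058, adjusted p = 0.000325), Med27, and Med13 (0.18, SE 0.061, adjusted p = 0.017). Med1 was lower (-0.50, SE 0.061, limma adjusted p = 4.67e-06) and so was Cdk19 (-0.57, SE 0.064, limma adjusted p = 2.43e-06). Cdk8 was lower with FPKM as deposited (-0.28, SE 0.052, limma adjusted p = 0.000244) and stood at 0.02 with median-of-ratios scaling. Ccnc (-0.06, SE 0.074, limma adjusted p = 0.453), Med12 (-0.12, SE 0.073, limma adjusted p = 0.15) and Med14 (-0.10, SE 0.057, limma adjusted p = 0.134) were not called. For Ccnc and Med14 the sign turned with median-of-ratios scaling, to 0.23 and 0.19.

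Ratios of paralogs within a library do not depend on the scaling between libraries. Cdk19 and Cdk8 fill the same place in the kinase module, and their FPKM ratio was 0.52 and 0.467 in heterozygous DMSO, 0.495 and 0.522 in heterozygous THZ1, 0.325 and 0.301 in null DMSO, and 0.404 and 0.406 in null THZ1. The null libraries lay below the heterozygous ones, and within the null line the ratio was higher with THZ1 than with DMSO. The ratio of Med13l to Med13 was 0.696 and 0.662 in heterozygous DMSO, 0.576 and 0.528 in heterozygous THZ1, 0.693 and 0.777 in null DMSO, and 0.861 and 0.809 in null THZ1. With THZ1 it was lower in the heterozygous line and higher in the null line, without overlap between treatments in either. With 2 libraries a group no exact permutation test of these ratios can pass, and none was made.

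The levels of the subunits lay further apart in null THZ1 than in the other groups. The member with the highest FPKM exceeded that with the lowest by 6.52 to 8.43 times in the 6 other libraries and by 10.1 and 12.4 times in the null THZ1 libraries. The SD of the members' log2(FPKM + 1) was 0.70 to 0.75 in those 6 libraries and 0.84 and 0.85 in null THZ1. The same spread was not computed for all tested genes, so whether it is particular to Mediator was not tested.

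Gene span was a property that the choice of members did not use. With THZ1 in null cells, of the 11 members under 10 kb 9 fell and 1 rose (Med28), beside 56.6% and 24.3% of all tested genes of that span. Of the 13 members of 10 to 50 kb 5 fell and 4 rose, beside 52.5% lower and 22.7% higher among all genes of that span. Of the 8 of 50 kb or more 2 fell (Cdk8 and Med15) and 4 rose (Med13, Med13l, Med26 and Med27), beside 43.5% lower and 28.5% higher among all genes that long. Across the 32 members the response in null cells and log10 span had a Pearson r of 0.57 and a Spearman rho of 0.58, against 0.11 and 0.11 across 10718 tested genes with a span. For the interaction r was 0.67 among members and 0.18 among all genes, and for the heterozygous response -0.12 and -0.11. Span and module are not separate here: the middle module holds many short genes, and apart from Med12 and Ccnc the kinase module genes exceed 50 kb. These are descriptions across genes that share libraries and depth.

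**Figure D5:**
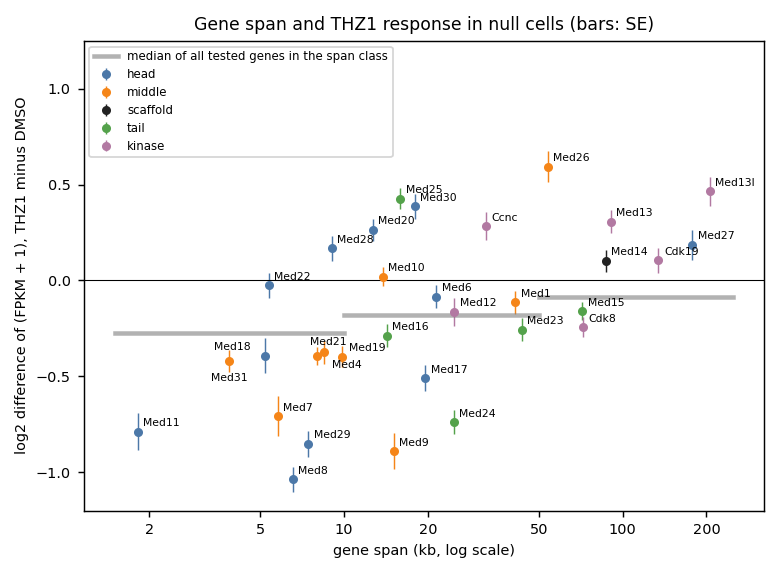
Response to THZ1 in null cells (vertical axis, log2 of FPKM + 1, with SE bars) against gene span in kb (horizontal axis, log scale), with members coloured by module and grey bars at the median of all tested genes in 3 span classes. Of the 11 members shorter than 10 kb 9 fell, beside 56.6% of all tested genes of that span. The 4 called increases at 50 kb or more are Med26, Med13, Med27 and Med13l, beside 28.5% of all tested genes that long.

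The machinery that works with Mediator was described by the same counts, over lists that are not independent of earlier results of these data. Of 12 RNA polymerase II subunits 8 rose with THZ1 in heterozygous cells, where 12.2% of all tested genes were called higher and 10.3% lower. In null cells 5 of them rose and 5 fell, beside 24.6% higher and 51.1% lower among all tested genes. Polr2a, the largest subunit, whose tail CDK7 phosphorylates, went from 63.9 ± 1.3 FPKM (SD, n = 2) to 110.2 ± 0.17 in heterozygous cells and from 49.1 ± 3.0 to 123.4 ± 2.0 in null cells, the largest increase in this list (1.31 in null cells, SE 0.046, limma adjusted p = 2.49e-10). Of 10 TFIIH genes 6 fell and 1 rose in null cells, and 3 rose in heterozygous cells. Gtf2h3 had the smallest adjusted p among those that fell, from 13.8 ± 0.99 to 5.68 ± 0.64 FPKM (SD, n = 2; -1.15, SE 0.078, limma adjusted p = 3.59e-08), and the riser was Gtf2h5 (0.56, SE 0.056, limma adjusted p = 1.28e-06). Of 14 TFIID genes 8 fell and 4 rose in null cells, with Taf6 at -1.06 (SE 0.048, limma adjusted p = 1.64e-09) and Taf13 at 0.77 (SE 0.058, limma adjusted p = 9.4e-08).

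Among 11 tested genes of the super elongation complex, which Med26 recruits, 4 rose and 3 fell in null cells, with Ell at 0.51 (SE 0.062, limma adjusted p = 7.18e-06) and Ell2 at -0.83 (SE 0.075, limma adjusted p = 4.82e-07). Of 10 cohesin and loader genes, which bridge enhancers and promoters with Mediator, 3 rose and 3 fell, none beyond 0.31 in size. For both lists, the shares over all tested genes in null cells were 24.6% higher and 51.1% lower. The median changes in null cells were -0.03 for the polymerase, -0.34 for TFIIH, -0.50 for TFIID, 0.07 for the super elongation complex and 0.00 for cohesin, around the -0.16 of Mediator and the -0.17 of all genes.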

How the data were processed

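Each of the 8 deposited files gives 1 FPKM value per gene and library, computed by the authors and listed by Entrez gene ID. Bowtie2, DESeq2 and the mouse build mm10 are named without versions, per the submitters' processing notes. Which program made the FPKM values, with which annotation and treatment of strand, is not given in the sources used here. Per the labels' protocols, TRIzol was used for isolation and oligo dT for selection. Symbols and coordinates come from RefSeq on GRCm38.p6, which matched 18592 IDs and left 39 unmatched.

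The design had provided for counts or for normalized values, and the values are not counts. limma 3.58.1 (R 4.3.3) was fitted to log2(FPKM + 1), without further scaling, for the 10731 genes with a mean of at least 1 FPKM over the 8 libraries. The fit had 1 mean per group, 4 residual degrees of freedom and a mean-variance trend. Each gene's variance was moderated toward that trend, so SEs, intervals and p-values rest on other genes as well as on these 4 degrees. p-values are two-sided, adjusted by Benjamini-Hochberg over all tested genes, and called under 0.05. Log2 values understate the change of low genes. FPKM is relative within a library, so the amount of mRNA per cell was not measured. The script was tested on simulated data.

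The members, modules and lists were chosen with earlier results of these data known. The text names, per comparison and module, the 2 called members that rose most and the 2 that fell most, every kinase module member, Med14, Med1 and Med26, and from each partner list the called gene with the smallest adjusted p in a direction. Values of other members were added as levels. The share of all tested genes whose libraries do not overlap between groups was not computed. The alternatives were 3 scalings, 2 pseudocounts, 2 filters, no trend, only the groups compared, a replicate block and each library left out in turn. Depth was estimated from the steps between low FPKM values.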

Additional observations from a re-analysis of the deposited data

Results flagged for a closer look

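The response to THZ1 differed between the lines by the interaction term, in null cells relative to heterozygous cells, in 19 of 32 tested members, 16 of them lower and 3 higher (limma, adjusted over all genes). Among all tested genes 45.1% were called lower and 15.1% higher, so these counts are near the background. The 10 members given here are those that the naming rule picks. The difference was -0.96 for Med8, -0.84 for Med29, -0.75 for Med7, -0.74 for Med9, -0.62 for Med24, -0.26 for Cdk8 and -0.22 for Med15. It was 0.27 for Med13, 0.58 for Med26 and 0.69 for Med13l. Cdk8 and Med15 lost this call with median-of-ratios and with upper-quartile scaling. Med13 lost it with library totals, without heterozygous DMSO replicate 1, without heterozygous THZ1 replicate 1 and without null DMSO replicate 2. The other 7 kept it in the 17 alternatives run. Cdk8 also lost it without heterozygous THZ1 replicate 1, and Med15 without heterozygous THZ1 replicate 2.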

How the results depend on the processing

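Med12l did not reach the filter of 1 FPKM and was not tested. The balance of rises and falls depended on the scale between libraries. With median-of-ratios scaling the members' median was -0.09 between the lines under DMSO, 0.05 for THZ1 in null cells, 0.02 for the interaction and -0.05 between the lines under THZ1. The counts that moved with it were 1 lower in heterozygous cells, 14 higher in null cells, 10 higher and 8 lower for the interaction and 10 higher between the lines under THZ1. With upper-quartile scaling the medians were -0.01, -0.04, -0.05 and -0.05 in the same order, and the counts 6 higher and 10 lower under DMSO, 2 higher and 1 lower in heterozygous cells, 6 higher and 10 lower for the interaction and 10 higher between the lines under THZ1. Library totals gave a median of -0.24 in null cells and, in heterozygous cells, -0.00 with 2 members lower. For the member counts listed so far, those over all tested genes stand with each comparison above. In heterozygous cells 1 member was lower with a mean of at least 5 FPKM, and 1 in a fit of only the groups compared, which cannot give an interaction. A pseudocount of 5 gave a median of -0.28 between the lines under THZ1.

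With median-of-ratios scaling the sign turned in 3 of 32 members under DMSO, 1 in heterozygous cells, 5 in null cells, 6 for the interaction and 7 between the lines under THZ1. Those called with FPKM as deposited were Med15 in null cells and for the interaction, and Cdk8 and Med10 between the lines under THZ1. Those called after the turn were Med6 and Med22 in null cells, and Ccnc, Med14, Med25 and Med28 between the lines under THZ1. Among the values that the naming rule picks, those called on either side of the turn were the interaction of Med15 (0.01 with this scaling) and, between the lines under THZ1, Ccnc (0.23 with both scalings), Cdk8 (0.02 with both) and Med14 (0.19 with median-of-ratios and 0.20 with upper-quartile scaling). Beyond the scale itself, the cause was not tested.

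Leaving out 1 library at a time gave 1 to 3 members higher and 14 to 17 lower under DMSO (median -0.19 to -0.16), 2 to 6 and 0 to 1 in heterozygous cells (0.02 to 0.06), 6 to 9 and 15 to 17 in null cells (-0.20 to -0.13), 2 to 4 and 14 to 17 for the interaction (-0.23 to -0.16) and 4 to 6 and 21 to 22 between the lines under THZ1 (-0.36 to -0.33). In heterozygous cells 1 member was called lower without heterozygous DMSO replicate 2, or without either null THZ1 replicate.

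With the replicate number as a block, 3 members were higher and 17 lower under DMSO, 6 and 0 in heterozygous cells, 9 and 16 in null cells, 3 and 16 for the interaction and 6 and 22 between the lines under THZ1. No pairing of libraries by number was evident: correlations of replicate differences between groups ran from -0.094 to 0.139. Such values cannot exclude that libraries of the same number were handled together.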
